A study of Mus musculus with 12 samples.

Results

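The genes described here are 53 genes of the cardiac fibroblast and of the extracellular matrix around heart cells. They comprise collagens, elastic, adhesive and matricellular glycoproteins, proteoglycans, matrix metalloproteinases and their inhibitors, crosslinking enzymes, TGF-beta ligands and fibroblast markers. The members were chosen by symbol from a list of names, which was drawn up with earlier results of these data known. All 53 were found among the 55453 gene symbols of the count tables and among the 14757 genes that passed the filter on low counts.

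Polyadenylated RNA from whole hearts of C57BL/6J mice was sequenced, and reads were counted per gene in 12 libraries, 1 per mouse, with 3 mice in each of 4 groups. KO DOX and KO vehicle hearts (mice 18, 19 and 20, and mice veh_3393, veh_3394 and veh_3395) carry the label PDE10A knockout, and WT DOX and WT vehicle hearts (mice 21, 22 and 24, and mice 1, 2 and 3) as PDE10A wild type. Doxorubicin (DOX), an anthracycline used against cancer that is known to injure the heart, was given as 1 intraperitoneal dose of 15 mg/kg and followed for 7 days. The design asks which transcripts DOX and PDE10A, an enzyme that breaks down cyclic nucleotides, regulate in the heart. The protocol also describes subcutaneous injection of the PDE10A inhibitor TP-10 or of its vehicle, DMSO in beta-cyclodextrin, before and after DOX, but no library used here is labelled with TP-10. The protocol gives the mice as male or female, and no label gives the sex or age of a mouse. How the knockout was made, in which cells, and whether the mice were littermates were not given in the labels, and the KO vehicle mice carry numbers of another range than all the others.

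The extracellular matrix of the heart is a scaffold of collagen fibrils, basement membranes and elastic fibres in which cardiomyocytes and vessels are embedded. Resident fibroblasts, which arise largely from the epicardium, make most of the fibrillar collagen, while endothelial cells and pericytes add basement membrane. Collagen chains are modified and folded in the endoplasmic reticulum, secreted, trimmed and crosslinked, and metalloproteinases and their inhibitors govern turnover. TGF-beta is the best known signal that drives fibroblasts to deposit matrix after injury.

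Library totals lay between 23846398 and 32921876 counts. Pde10a itself stood higher in the libraries labelled KO, at 8.27, 8.49 and 9.09 CPM (counts scaled to library size) in KO DOX and 9.31, 11.9 and 9.13 CPM in KO vehicle hearts, against 2.696, 2.08 and 1.79 CPM in WT DOX and 3.38, 1.00 and 1.86 CPM in WT vehicle hearts. The counts thus do not show a loss of transcript, "KO" below means labelled KO, and which genotype is called higher or lower depends on those labels. Levels of the 53 genes varied together within groups. KO DOX mouse 18 held the highest level of its group for 48 of the 53 genes, KO vehicle mouse veh_3394 for 49, WT DOX mouse 21 for 33 and WT vehicle mouse 2 for 35. Values per library are listed throughout in the order in which the mice are named above. The lowest level lay in KO DOX mouse 19 for 39 genes, in KO vehicle mouse veh_3395 for 35 and in WT DOX mouse 24 for 36. The summed level of 6 atrial cardiomyocyte markers was 1754 CPM in KO DOX mouse 18 and 2338 CPM in KO vehicle mouse veh_3394, against 80.8 to 277 CPM in the other 10 libraries, so these 2 libraries were high both in matrix genes and in atrial genes. Nppa, counted in that sum, had 745 to 6919 read counts in the other 10. Myl7, on the same list, had 13774, 59 and 16 read counts in KO DOX and 6, 14370 and 2 in KO vehicle hearts. In WT hearts Myl7 had 4, 3 and 269 under DOX and 2, 341 and 353 under vehicle. WT DOX mouse 24 and WT vehicle mice 2 and 3 thus also held atrial transcripts, at lower levels. The summed level of 10 mesothelial and epicardial markers was highest of its group in the same 4 libraries, at 282 CPM in KO DOX mouse 18, 258 CPM in KO vehicle mouse veh_3394, 235 CPM in WT DOX mouse 21 and 324 CPM in WT vehicle mouse 2, against 210.1 to 238 CPM in the other 8 libraries. Most of that sum was Cpe, with 6225, 6265, 6004 and 8380 read counts in those 4 libraries in the order given. Wt1, on the same list, had 106, 87 and 137 read counts in KO DOX and 99, 64 and 75 in KO vehicle hearts. KO DOX mouse 18 and KO vehicle mouse veh_3394 thus did not hold the highest Wt1 of their groups. Read counts of the mesothelial marker Msln were 144, 8 and 107 in KO DOX, 22, 89 and 6 in KO vehicle, 117, 1 and 22 in WT DOX and 21, 243 and 18 in WT vehicle hearts. Those of the adipocyte marker Cfd were 1132, 8 and 46 in KO DOX, 4, 370 and 26 in KO vehicle, 6, 3 and 50 in WT DOX and 1, 402 and 135 in WT vehicle hearts. The part of these cell types in the levels of the 53 genes was not tested. Mitochondrially encoded genes took 19.5% of counts in WT vehicle mouse 2 and 24.4% to 33.6% elsewhere. The median coefficient of variation of the 53 genes within a group was 38.6% in KO DOX, 21.2% in KO vehicle, 31.1% in WT DOX and 17.0% in WT vehicle hearts.

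**Figure D1:**
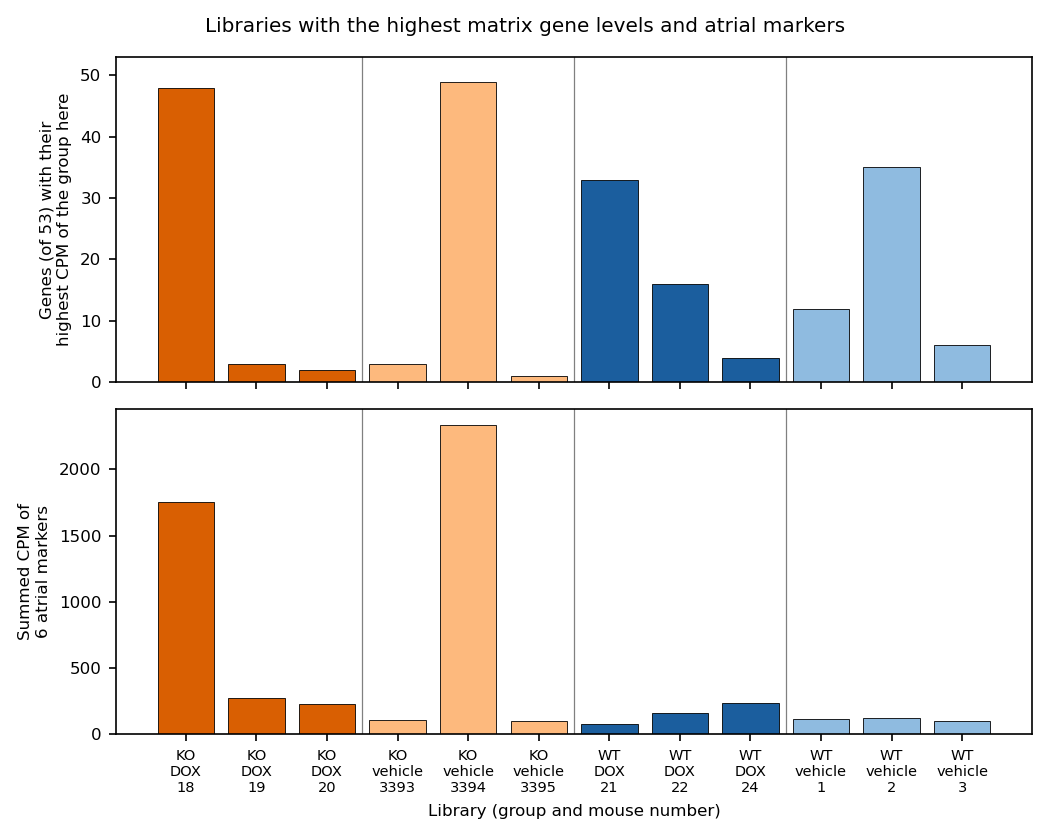
Top, for each library the number of the 53 genes whose highest CPM within the group of 3 lies in that library; bottom, the summed CPM of 6 atrial cardiomyocyte markers. KO DOX mouse 18 and KO vehicle mouse veh_3394 hold the highest level of 48 and 49 genes and have 1754 and 2338 CPM of atrial markers, while the other libraries stay at or below 277 CPM. The sum does not show the lower counts of Myl7 in WT DOX mouse 24 and WT vehicle mice 2 and 3.

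In WT hearts, DOX moved a few matrix genes in both directions while most of the others had lower means. Thbs2, Lox and Mmp14 rose, and Meox1, Sparc, Serpinh1, Col5a3, Tgfb1 and Smoc2 fell, at an adjusted p below 0.05 (edgeR's quasi-likelihood test, Benjamini-Hochberg adjustment over all genes tested). These 9 of 53 genes stand beside 18.6% of all genes that passed for the same comparison (9.39% higher and 9.20% lower), a share close to that of all genes and so no result about these genes. The log2 fold change was negative for 41 genes and positive for 12, with a median of -0.47, whereas that of all genes tested was -2.29e-05. Every WT DOX library lay below every WT vehicle library for 16 genes and above for 4, against 15.8% and 16.8% of all genes. At an unadjusted p below 0.05 there were 21 of the 53, beside 36.1% of all genes. The median was -0.25 without WT DOX mouse 24 and -0.58 without WT DOX mouse 21. The count depended on the libraries and the fit. With a covariate for the suffix that some sample titles carry, Col5a3, Smoc2, Mmp14 and Serpinh1 did not pass (adjusted p 0.0507 to 0.0978). The number of genes called was 1 without WT DOX mouse 22 or 24, 3 without WT vehicle mouse 2, 4 without WT vehicle mouse 3, 17 without WT DOX mouse 21, and 0 when only WT DOX and WT vehicle hearts were fitted, where Thbs2 had an adjusted p = 0.0677. The shares of all genes called in those fits are not given here, so those counts are no result about the 53 genes. Without scaling factors the calls over all genes split to 66.22% higher, against 1386 higher and 1357 lower with them. In bulk tissue, fewer fibroblasts and less RNA per fibroblast cannot be told apart.

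In KO hearts, none of the 53 genes passed for DOX against vehicle by edgeR, where 0.0136% of all genes did (2 genes, 0.00678% higher and 0.00678% lower). Every KO DOX library lay above every KO vehicle library for 5 of the 53 genes and below for 3, against 8.27% and 8.05% of all genes. DESeq2 and limma-voom each called the same number, 2, which were Col5a3 (higher) and Tgfb1 (lower) in both. The shares of all genes called by those fits are not given here, so that count is no result about the 53 genes. By edgeR, 8 of the 53 had an unadjusted p below 0.05, beside 5.35% of all genes. The median log2 fold change was 0.03, with 28 positive and 25 negative values, and 0.01 over all genes. Without KO DOX mouse 18 the median was -0.33, and without KO vehicle mouse veh_3394 it was 0.26, so its sign rested on single libraries. Whether the DOX effect differed between KO and WT hearts was tested as an interaction, which only Col5a3 of the 53 passed, beside 0.210% of all genes (31 genes). The median interaction was 0.35 over the 53 genes, with 41 positive values. Leaving out 1 library gave 0.12 (KO DOX mouse 18), 0.19 (WT DOX mouse 24), 0.56 (WT DOX mouse 21), 0.60 (KO vehicle mouse veh_3394) or 0.61 (KO DOX mouse 19). Among the 53, 7 had an unadjusted p below 0.05 for the interaction, beside 16.0% of all genes. Each genotype's DOX effect shares its vehicle group with the KO comparison under vehicle.

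Between genotypes under vehicle, 2 of the 53 genes passed, beside 2.88% of all genes (1.79% higher and 1.09% lower). Every KO vehicle library lay above every WT vehicle library for 4 of the 53 genes and below for 12, against 16.5% and 14.8% of all genes. Col5a3 was lower and Timp3 higher in KO vehicle hearts. The median of the 53 was -0.12. Leaving out veh_3394 gave -0.40 and leaving out veh_3395 gave -0.07, with -0.23, -0.03 and -0.22 without WT vehicle mouse 1, 2 or 3. Of the 53 genes, 10 had an unadjusted p below 0.05, beside 26.0% of all genes. Under DOX, none passed between KO and WT hearts by edgeR, where 0.420% of all genes did. Every KO DOX library lay above every WT DOX library for 3 of the 53 genes and below for 2, against 9.86% and 9.75% of all genes. DESeq2 called 3 and limma-voom 5 of the 53, and without WT DOX mouse 21 edgeR called 7. The shares of all genes called in those fits are not given here, so those counts are no result about the 53 genes. By edgeR with all libraries, 9 had an unadjusted p below 0.05, beside 15.5% of all genes. The median was 0.31 with all libraries, -0.03 without KO DOX mouse 18 and 0.11 without WT DOX mouse 24. The KO comparisons share their WT and KO groups with the DOX comparisons, so the values of 1 gene in several comparisons are not independent of each other.

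**Figure D2:**
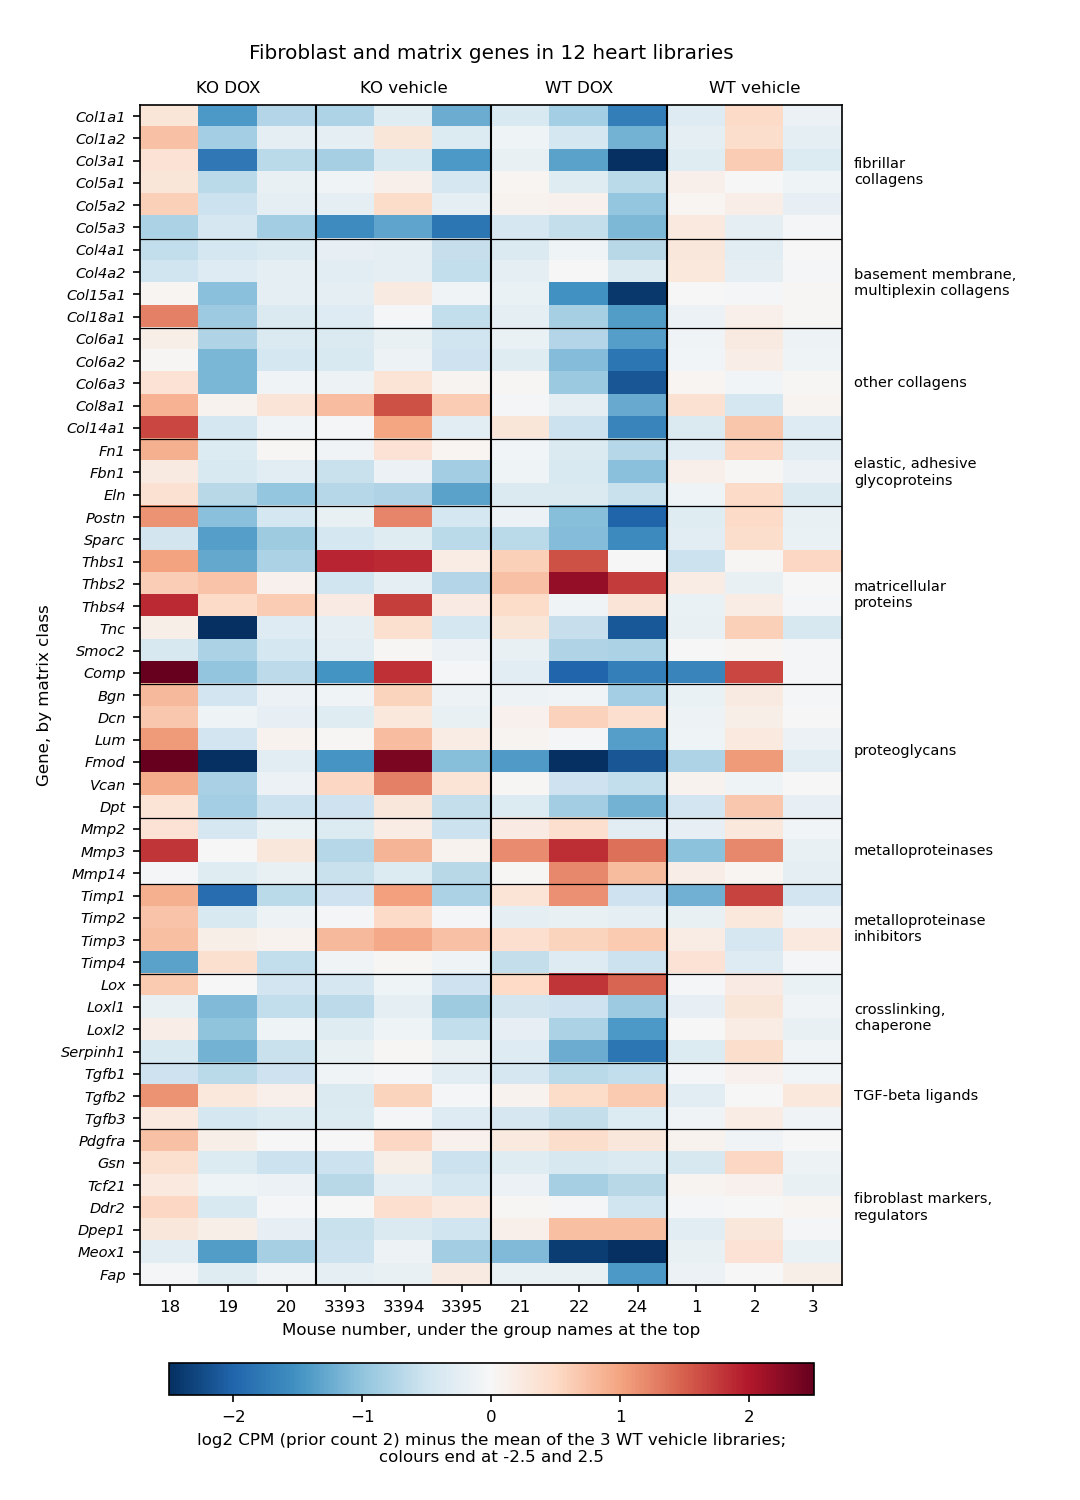
Log2 CPM of each of the 53 genes in each library, less the mean of the 3 WT vehicle libraries; genes run down the page by matrix class and libraries run across by group. Thbs2, Lox and Mmp14 stand above the WT vehicle mean in WT DOX mice 22 and 24, and KO DOX mouse 18 and KO vehicle mouse veh_3394 are mostly above their group mates.

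**Figure D3:**
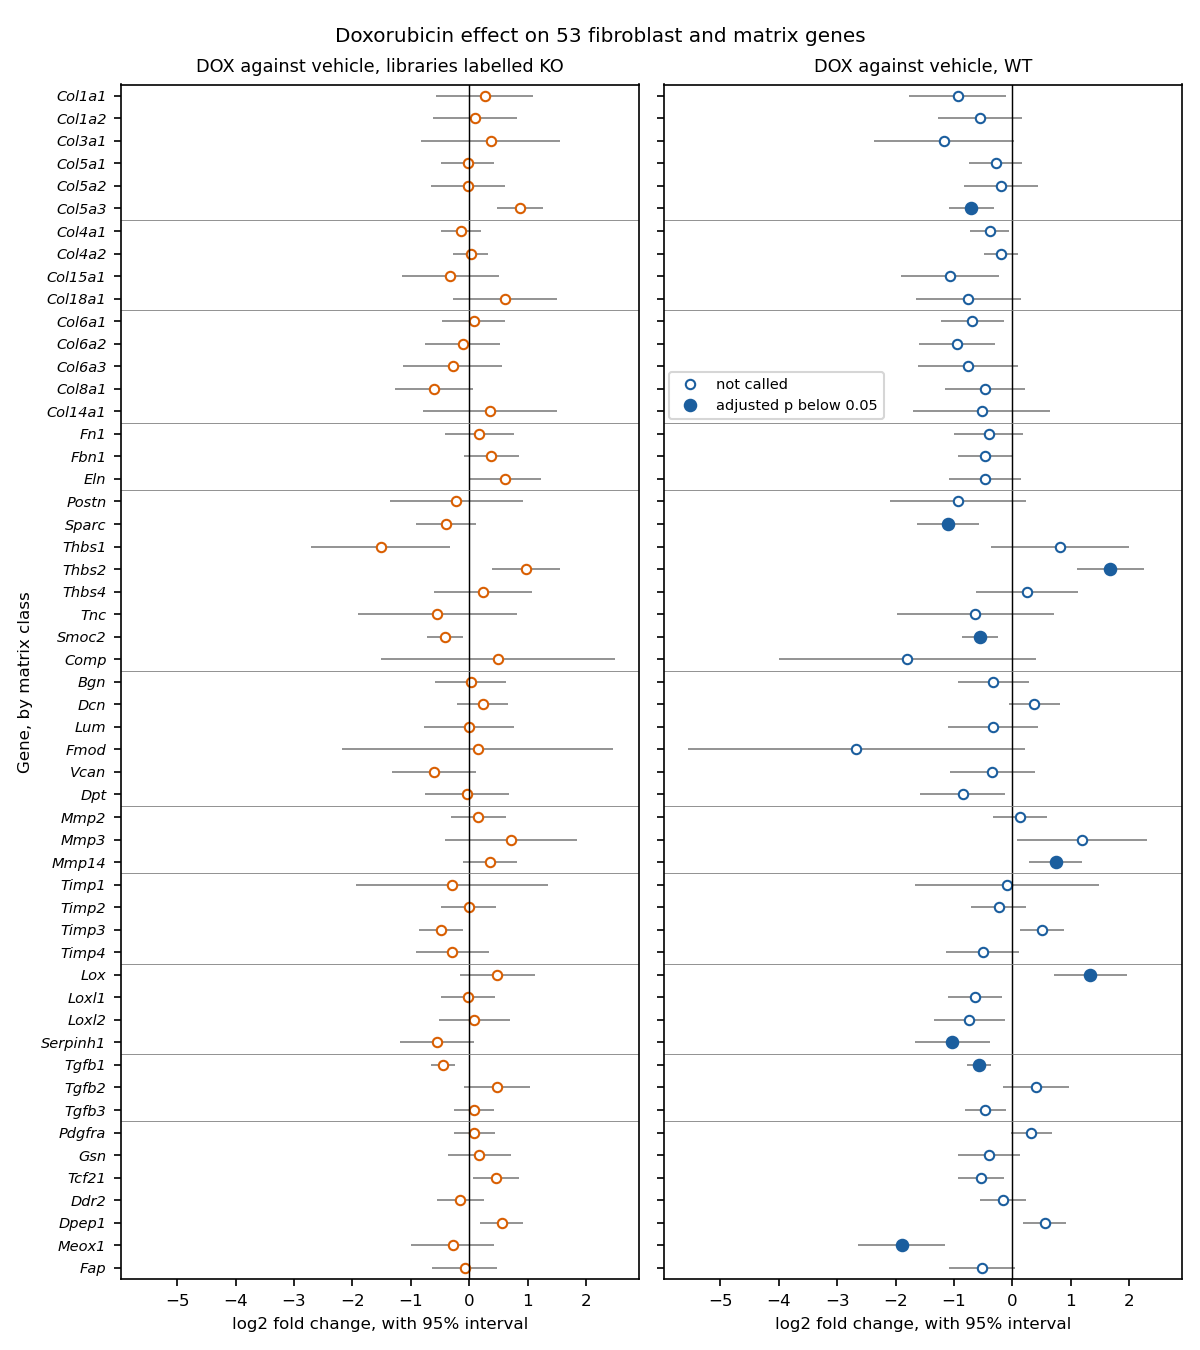
Log2 fold change of DOX against vehicle for each gene, in KO hearts (left panel) and WT hearts (right panel). Filled points had an adjusted p below 0.05. The intervals are approximate 95% intervals, computed from the SE and a normal distribution. They are narrower than intervals matched to edgeR's quasi-likelihood test, so an interval clear of 0 is not a call. In WT hearts 9 genes are filled and 41 points lie below 0, and in KO hearts none is filled and points lie on both sides of 0.

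Markers of other cell types were read in the same WT comparison, where 18.6% of all genes passed (9.39% higher and 9.20% lower). All 7 neutrophil markers tested rose, with a summed level of 9.24 to 41.2 CPM in WT DOX and 2.32 to 3.45 CPM in WT vehicle hearts, where Ly6g had no count. The sum was 4.37 to 5.66 CPM in KO DOX and 7.25 to 11.6 CPM in KO vehicle hearts. Cxcr2, Retnlg, Il1r2 and Mmp8 passed the filter on low counts only with the WT DOX libraries, and Ly6g did not pass it. The number that rose is thus partly set by the filter. S100a8, S100a9 and Csf3r had enough counts in KO vehicle hearts to be tested without them. Of 10 endothelial markers 4 fell in WT hearts, with sums of 879 to 1012 CPM under DOX and 1023 to 1246 CPM under vehicle. Of 6 adipocyte markers tested 1 fell. The adipocyte sum, 337 to 440.3 CPM under DOX and 672 to 895 CPM under vehicle, is nearly all Fabp4, which endothelium also makes. Fabp4 had 11329, 11810 and 11249 read counts in WT DOX and 14719, 25032 and 19355 in WT vehicle hearts. Adipoq, which is specific to adipocytes, had 6, 2 and 10 read counts in WT DOX and 0, 52 and 25 in WT vehicle hearts, which overlapped. Of 10 cardiomyocyte markers 2 fell, beside 9.20% of all genes, on a list too small to be told from that share. Their sums were 57003 to 71673 CPM under DOX and 74392 to 86210 CPM under vehicle, with no overlap. The part of these cell types in the matrix gene values was not tested.

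Upstream sequence was available for some of the genes that carry these results. RefSeq start sites on GRCm38.p6 gave a window of 250 bases before the start for 36 of the 53 genes. The windows of Thbs2 and Mmp14, which rose with DOX in WT hearts, and of Col5a3, the gene of the interaction, are printed 5′ to 3′ on the strand of the gene. Thbs2 is shown from chr17:14694263-14694512 (minus strand), Mmp14 from chr14:54431348-54431597 (plus strand) and Col5a3 from chr9:20815068-20815317 (minus strand). Capitals mark each match, on either strand, to 5 motifs. The CCAAT box was searched by that name's letters. The TATA box was searched as TATAAA and the GC box as GGGCGG. The site of the factor AP-1 was searched as TGACTCA. The core bound by SMAD proteins, called CAGA core here, was searched as CAGACA.
Thbs2: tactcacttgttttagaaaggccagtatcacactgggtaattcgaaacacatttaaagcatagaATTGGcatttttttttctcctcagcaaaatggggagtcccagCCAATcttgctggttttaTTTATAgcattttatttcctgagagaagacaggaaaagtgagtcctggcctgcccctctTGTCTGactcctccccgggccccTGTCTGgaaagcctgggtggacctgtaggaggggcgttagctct
Mmp14: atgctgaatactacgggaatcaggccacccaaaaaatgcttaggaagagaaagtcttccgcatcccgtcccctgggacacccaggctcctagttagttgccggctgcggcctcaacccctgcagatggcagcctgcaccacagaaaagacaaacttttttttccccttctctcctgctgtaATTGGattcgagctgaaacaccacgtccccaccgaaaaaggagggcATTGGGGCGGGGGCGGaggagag
Col5a3: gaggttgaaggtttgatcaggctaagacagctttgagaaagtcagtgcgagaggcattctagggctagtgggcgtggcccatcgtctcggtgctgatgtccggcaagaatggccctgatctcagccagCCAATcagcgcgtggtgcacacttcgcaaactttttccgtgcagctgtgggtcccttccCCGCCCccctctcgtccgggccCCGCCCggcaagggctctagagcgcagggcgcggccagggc
The Thbs2 window held a TATA box 126 bases before the start, CCAAT boxes at 186 and 144 bases and CAGA cores at 67 and 44 bases. The Mmp14 window held CCAAT boxes at 69 and 23 bases and GC boxes at 19 and 13 bases, with 1 base in 2 motifs, and no TATA box. The Col5a3 window held a CCAAT box at 122 bases and GC boxes at 63 and 41 bases. Among the 36 genes with a window, 11 held a CCAAT box, 6 a TATA box, 19 a GC box, 2 an AP-1 site and 9 a CAGA core. Of all 32851 windows of the table, 33.85% held a CCAAT box, 12.37% a TATA box, 32.74% a GC box, 4.463% an AP-1 site and 17.13% a CAGA core. A match describes letters in a window and not a site that is bound.

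Levels of different genes were compared as CPM per kilobase of annotated exon. Gsn, gelsolin, an actin-severing protein that fibroblasts and other heart cells make, was the highest of the 53 in every group, at 428 ± 154 CPM per kb in KO DOX, 378 ± 109 in KO vehicle, 359.6 ± 12.1 in WT DOX and 474 ± 158 in WT vehicle hearts (SD, n = 3 each). In WT vehicle hearts Serpinh1 (94.7 ± 27.7 CPM per kb), Sparc (90.3 ± 25.4) and Dcn (82.1 ± 7.68) came next and did not differ beyond their spread. In WT DOX hearts Dcn (107 ± 16.8 CPM per kb) came next, above Serpinh1 (46.4 ± 24.8), Timp3 (45.5 ± 3.77), Dpep1 (45.1 ± 10.5) and Sparc (42.0 ± 13.1), which overlapped each other. Tnc, tenascin C, a glycoprotein of remodelling matrix, was the lowest in every group, at 0.0968 ± 0.0755 CPM per kb in KO DOX, 0.140 ± 0.0476 in KO vehicle, 0.1000 ± 0.0774 in WT DOX and 0.152 ± 0.0617 in WT vehicle hearts. Fap, an activated fibroblast marker, stood at 2.66 ± 1.13 CPM in WT DOX and 3.78 ± 0.411 CPM in WT vehicle hearts (SD, n = 3 each).

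Of the 6 fibrillar collagen genes, whose products form the tensile fibrils, 1 fell with DOX in WT hearts, beside 9.20% of all genes. None passed with DOX in KO hearts, where 0.0136% of all genes did. All 6 had a negative log2 value in WT (median -0.63). The classes here and below are too small for their counts of calls to be told from the shares of all genes. The gene that fell was Col5a3, the third chain of type V collagen, which nucleates fibrils (GRCm38 chr9:20770050-20815067, minus strand). Its level was 29.2, 26.0 and 17.9 CPM in WT DOX and 46.5, 33.7 and 38.4 CPM in WT vehicle hearts, and 22.5, 29.4 and 21.4 CPM in KO DOX and 13.2, 15.6 and 11.1 CPM in KO vehicle hearts. WT DOX lay below WT vehicle in every library and KO DOX above KO vehicle in every library, and the KO vehicle libraries were the lowest of all 12. The log2 fold change with DOX was -0.70 (SE 0.19, adjusted p = 0.031) in WT and 0.87 (SE 0.20, adjusted p = 0.301) in KO hearts. Their difference was 1.57 (SE 0.28, adjusted p = 0.0481). KO against WT under vehicle gave -1.57 (SE 0.20, adjusted p = 0.0032). In KO DOX and WT DOX hearts Col5a3 averaged 24.4 ± 4.32 and 24.4 ± 5.81 CPM (SD, n = 3 each). The call under vehicle was kept in all 6 fits that left out 1 library (log2 -1.70 to -1.43). That of the interaction was lost in 10 of 12 such fits, all but those without KO DOX mouse 18 or WT DOX mouse 21 (adjusted p up to 0.161). It was also lost with the title suffix covariate (adjusted p = 0.0544) and without both KO DOX mouse 18 and KO vehicle mouse veh_3394 (adjusted p = 0.068). That in WT was lost in 5 of 6, all but the fit without WT DOX mouse 21 (adjusted p up to 0.112).

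The main chains of the fibrils did not pass. Col1a1 stood at 61.6, 44.6 and 24.2 CPM in WT DOX and 64.5, 112 and 72.5 CPM in WT vehicle hearts, with no overlap (log2 -0.93, SE 0.42, adjusted p = 0.134). In KO hearts it stood at 98.7, 29.6 and 48.4 CPM under DOX and 47.3, 65.6 and 34.1 CPM under vehicle, which overlapped (log2 0.27, SE 0.42, adjusted p = 0.997). Col3a1, the chain of type III collagen, had 144, 64.4 and 21.6 CPM in WT DOX and 133, 255 and 129.7 CPM in WT vehicle hearts (log2 -1.17, SE 0.61, adjusted p = 0.186). WT DOX mouse 21 lay within the vehicle range, and mouse 24 had the lowest Col3a1 of all 12 libraries. Col3a1 had 209, 47.5 and 103 CPM in KO DOX and 91.6, 127 and 60.3 CPM in KO vehicle hearts (log2 0.37, SE 0.61, adjusted p = 0.997), and between KO and WT under vehicle its log2 value was -0.89 (SE 0.61, adjusted p = 0.372). Col1a2, the partner of Col1a1 in type I collagen, gave -0.55 (SE 0.37, adjusted p = 0.296) for DOX in WT and 0.10 (SE 0.37, adjusted p = 0.997) in KO hearts. Col5a1 and Col5a2, the common chains of type V, averaged 31.7 ± 7.77 and 24.02 ± 8.81 CPM in WT DOX hearts, against 38.7 ± 3.39 and 27.4 ± 3.60 CPM in WT vehicle hearts (SD, n = 3 each).

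Ratios between chains that assemble together remove library depth, and 4 such pairs were compared over 16 contrasts, chosen after the values were seen. For Col1a1 to Col1a2, which combine as 2 chains to 1 in type I collagen, the ratio of read counts was 0.618 ± 0.0563 in WT DOX and 0.819 ± 0.0524 in WT vehicle hearts, and 0.573 ± 0.0325 in KO DOX and 0.515 ± 0.0658 in KO vehicle hearts (SD, n = 3 each). The ratio was lower in every WT DOX, and in every KO vehicle, library than in any WT vehicle library, and KO DOX and KO vehicle overlapped. For Col5a3 to Col5a1 the ratio was 0.770 ± 0.0548 in WT DOX and 1.02 ± 0.119 in WT vehicle hearts. It was 0.476, 1.22 and 0.635 in KO DOX and 0.365, 0.372 and 0.387 in KO vehicle hearts, so the low Col5a3 of KO vehicle hearts was not shared by its partner chain. Col4a1 to Col4a2, chains of type IV collagen transcribed from a shared promoter region in opposite directions, gave 1.11 ± 0.0044 in KO DOX and 1.25 ± 0.0279 in KO vehicle hearts, and 1.06 ± 0.0791 in WT DOX and 1.21 ± 0.054 in WT vehicle hearts. DOX libraries were lower than vehicle libraries in both genotypes. For Col6a3 to Col6a1, chains of type VI collagen, the ratio was 0.392 ± 0.0931 in KO DOX, 0.518 ± 0.0631 in KO vehicle, 0.326 ± 0.104 in WT DOX and 0.381 ± 0.0651 in WT vehicle hearts. With 3 libraries a side, no exact two-sided permutation p can go below 0.1, the value of each contrast without overlap, which is 0.178 adjusted over the 16.

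**Figure D4:**
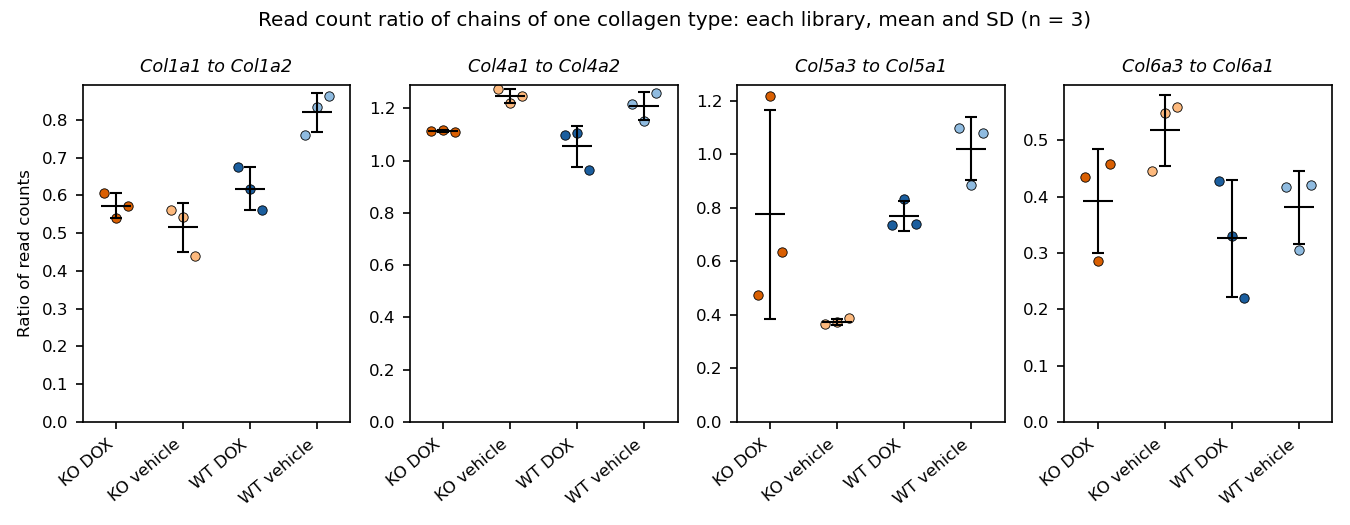
Ratio of read counts between 2 chains of 1 collagen type in each library, with the mean and SD of each group of 3; the 4 panels show 4 chain pairs. Col5a3 to Col5a1 lies at 0.365 to 0.387 in the KO vehicle libraries, and Col1a1 to Col1a2 is higher in the WT vehicle libraries than in every other library.

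None of the 4 basement membrane and multiplexin collagen genes passed in any comparison. Col4a1, which with Col4a2 forms the network of vessel and myocyte basement membranes, stood at 281, 333 and 223 CPM in WT DOX and 438, 295 and 362 CPM in WT vehicle hearts. The groups overlapped through WT DOX mouse 22. Col15a1, a collagen at the outer face of basement membranes, had 70.3, 27.5 and 14.8 CPM in WT DOX and 78.4, 77.2 and 80.4 CPM in WT vehicle hearts. The vehicle values were close together, and WT DOX mice 22 and 24 lay far below mouse 21. In KO hearts Col15a1 had 80.9, 38.0 and 67.4 CPM under DOX and 67.1, 92.2 and 73.6 CPM under vehicle. Col18a1, the precursor of endostatin, had 27.9, 6.15 and 9.06 CPM in KO DOX and 9.28, 11.2 and 7.55 CPM in KO vehicle hearts. Its log2 value for DOX in KO hearts was 0.62 (SE 0.45, adjusted p = 0.997), and -0.30 without KO DOX mouse 18. Medians of the class were -0.06 for DOX in KO and -0.57 for DOX in WT hearts.

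The 5 other collagen genes comprise the type VI chains, which form beaded filaments around cells, Col8a1 of short-chain networks and Col14a1, which decorates fibrils. None passed, and all 5 had a negative log2 value for DOX in WT hearts (median -0.68). Col6a2 had 73.5, 42.7 and 25.7 CPM in WT DOX and 86.3, 102 and 84.5 CPM in WT vehicle hearts, with no overlap. Col6a3 had 33.6, 17.4 and 7.40 CPM in WT DOX and 34.1, 31.4 and 33.6 CPM in WT vehicle hearts, where WT DOX mouse 21 was within the vehicle range. Col8a1 had 22.9, 40.5 and 20.7 CPM in KO vehicle and 17.5, 9.74 and 13.9 CPM in WT vehicle hearts (log2 1.04, SE 0.34, adjusted p = 0.0909). KO vehicle hearts were thus higher in every library without passing the threshold. With DOX in KO hearts Col8a1 gave -0.60 (SE 0.34, adjusted p = 0.997). Col14a1 had 35.7, 8.23 and 10.4 CPM in KO DOX and 13.8, 7.65 and 3.48 CPM in WT DOX hearts (log2 1.13, SE 0.60, adjusted p = 0.388), and the high mean of KO DOX hearts came from mouse 18.

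The 3 elastic and adhesive glycoprotein genes did not pass either. Fn1, fibronectin, to which cells attach through integrins, averaged 35.3 ± 7.86 CPM in WT DOX and 46.7 ± 15.8 CPM in WT vehicle hearts (log2 -0.41, SE 0.30, adjusted p = 0.349). In KO hearts it averaged 55.1 ± 25.4 CPM under DOX and 48.8 ± 8.24 CPM under vehicle (SD, n = 3 each; log2 0.17, SE 0.30, adjusted p = 0.997). Eln, elastin, had 26.6, 25.8 and 17.2 CPM in KO vehicle and 40.5, 61.1 and 33.9 CPM in WT vehicle hearts, with no overlap (log2 -0.96, SE 0.32, adjusted p = 0.0909). Fbn1, fibrillin 1, the core of microfibrils, averaged 38.8 ± 12.1 CPM in WT DOX and 53.3 ± 5.04 CPM in WT vehicle hearts. Of the Fbn1 exon length, 20.14% overlaps Gm9913 on the other strand.

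The secreted products of the 8 matricellular genes tune cell and matrix contacts without bearing load. With DOX in WT hearts 1 rose and 2 fell, beside 9.39% and 9.20% of all genes, and 5 did not pass. Thbs2, thrombospondin 2, which limits angiogenesis and binds matrix proteases (GRCm38 chr17:14665500-14694235, minus strand), had 34.3, 94.8 and 69.8 CPM in WT DOX and 23.4, 18.1 and 20.6 CPM in WT vehicle hearts. Every WT DOX heart was higher, mouse 21 the least so. Thbs2 rose 3.21-fold (log2 1.68, SE 0.30, adjusted p = 0.0103), and this was the only one of the 9 calls kept in all 6 fits that left out 1 library (log2 1.33 to 1.99). In KO hearts Thbs2 had 31.5, 33.7 and 22.2 CPM under DOX and 14.6, 17.7 and 12.4 CPM under vehicle, again with no overlap, but it did not pass (log2 0.97, SE 0.30, adjusted p = 0.612). KO DOX hearts lay below WT DOX hearts in every library (log2 -1.18, SE 0.29, adjusted p = 0.0951). Thbs2 and Smoc2 lie 5.68 and 5.29 Mb from Pde10a on chromosome 17.

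Sparc, a collagen-binding glycoprotein needed for fibril maturation (GRCm38 chr11:55394500-55423183, minus strand), had 209.9, 157 and 111 CPM in WT DOX and 275, 452 and 299 CPM in WT vehicle hearts. No WT DOX library reached a vehicle library, and WT vehicle mouse 2 was the highest. Sparc fell (log2 -1.10, SE 0.27, adjusted p = 0.0215), but it no longer passed once WT vehicle mouse 2, or either of WT DOX mice 22 and 24, was left out (adjusted p as high as 0.0846). Its level in KO hearts was 242, 129 and 179.8 CPM under DOX and 246, 269 and 210.0 CPM under vehicle, which overlapped. Smoc2, a SPARC-related calcium-binding protein (GRCm38 chr17:14279506-14404790, plus strand), had 69.5, 46.9 and 45.4 CPM in WT DOX and 78.5, 81.9 and 76.9 CPM in WT vehicle hearts. It fell (log2 -0.55, SE 0.16, adjusted p = 0.0344), but missed the threshold when any 1 of WT vehicle mice 2 and 3 and WT DOX mice 22 and 24 was left out (adjusted p as high as 0.131). Its KO values were 59.8, 45.8 and 58.6 CPM under DOX and 66.2, 80.9 and 71.0 CPM under vehicle, lower in every DOX library without passing.

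The other matricellular genes did not pass. Postn, periostin, the classic marker of activated cardiac fibroblasts, had 29.4, 15.6 and 8.06 CPM in WT DOX and 26.4, 45.3 and 28.7 CPM in WT vehicle hearts (log2 -0.93, SE 0.60, adjusted p = 0.278). It had 70.4, 15.8 and 24.04 CPM in KO DOX and 28.6, 75.6 and 23.8 CPM in KO vehicle hearts (log2 -0.22, SE 0.58, adjusted p = 0.997). The high values were those of KO DOX mouse 18 and KO vehicle mouse veh_3394. Thbs1, an activator of latent TGF-beta, had 20.2, 4.06 and 5.78 CPM in KO DOX and 37.5, 36.8 and 11.4 CPM in KO vehicle hearts (log2 -1.52, SE 0.61, adjusted p = 0.824). In WT hearts Thbs1 had 15.1, 30.1 and 10.1 CPM under DOX and 6.86, 10.2 and 14.3 CPM under vehicle (log2 0.81, SE 0.60, adjusted p = 0.346). Both pairs overlapped. Thbs4, a thrombospondin of the stressed heart, averaged 3.94 ± 0.758 CPM in WT DOX and 3.32 ± 0.417 CPM in WT vehicle hearts (SD, n = 3 each; log2 0.24, SE 0.45, adjusted p = 0.721). In KO hearts Thbs4 had 12.2, 4.61 and 5.20 CPM under DOX and 3.84, 11.1 and 3.80 CPM under vehicle. Comp, cartilage oligomeric matrix protein, had 16.6, 1.39 and 1.77 CPM in KO DOX and 2.30, 0.655 and 0.806 CPM in WT DOX hearts (log2 2.40, SE 1.12, adjusted p = 0.327), where mouse 18 held most of the KO DOX counts. In WT vehicle hearts Comp had 0.846, 9.19 and 2.78 CPM, which overlapped WT DOX.

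None of the 6 genes listed with the proteoglycans passed. Dcn, decorin, a small proteoglycan that spaces fibrils and binds TGF-beta, had 518, 712 and 640.0 CPM in WT DOX and 439, 528 and 472 CPM in WT vehicle hearts (log2 0.38, SE 0.22, adjusted p = 0.241). It was the only gene of the class with a positive value for DOX in WT hearts, and mouse 21 kept the groups from separating. In KO hearts Dcn averaged 539 ± 194 CPM under DOX and 459.7 ± 99.0 CPM under vehicle (SD, n = 3 each; log2 0.23, SE 0.22, adjusted p = 0.997). Fmod, fibromodulin, a relative of decorin rich in tendon, varied widely. It had 12.1, 0.110 and 1.70 CPM in KO DOX, 0.684, 10.8 and 0.939 CPM in KO vehicle, 0.719, 0 and 0.403 CPM in WT DOX and 1.16, 4.35 and 1.67 CPM in WT vehicle hearts. Its values for DOX in WT (log2 -2.67, SE 1.47, adjusted p = 0.208) and for KO under DOX (log2 3.60, SE 1.46, adjusted p = 0.264) rest on a WT DOX library with no count and on KO DOX mouse 18. Bgn, biglycan, and Lum, lumican, averaged 159 ± 42.7 and 37.0 ± 16.7 CPM in WT DOX hearts, against 199.6 ± 28.7 and 46.5 ± 7.33 CPM in WT vehicle hearts. Dpt, dermatopontin, a decorin partner listed here though not itself a proteoglycan, averaged 52.2 ± 16.0 CPM in WT DOX and 93.6 ± 41.6 CPM in WT vehicle hearts. Vcan, versican, of provisional matrix, averaged 13.8 ± 8.60 CPM in KO DOX and 20.9 ± 7.53 CPM in KO vehicle hearts (SD, n = 3 each; log2 -0.60, SE 0.37, adjusted p = 0.997).

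All 3 matrix metalloproteinase genes had positive log2 values for DOX in WT hearts, and 1 passed, beside 18.6% of all genes. Mmp14, the membrane-anchored collagenase that activates Mmp2 (GRCm38 chr14:54431612-54445364, plus strand), had 11.8, 26.5 and 20.01 CPM in WT DOX and 12.9, 12.0 and 9.92 CPM in WT vehicle hearts. It rose (log2 0.74, SE 0.23, adjusted p = 0.0428) through mice 22 and 24, while mouse 21 lay within the vehicle range. Leaving out any 1 of WT vehicle mice 2 and 3 and WT DOX mice 22 and 24 ended the call (adjusted p as high as 0.177). KO values were 11.2, 9.40 and 10.2 CPM under DOX and 7.87, 9.09 and 7.08 CPM under vehicle, with no overlap and no call. KO DOX hearts lay below WT DOX hearts in every library (log2 -0.92, SE 0.23, adjusted p = 0.0986). Mmp3, stromelysin 1, had 9.88, 15.8 and 11.4 CPM in WT DOX and 2.09, 10.1 and 3.81 CPM in WT vehicle hearts (log2 1.20, SE 0.57, adjusted p = 0.15), and WT vehicle mouse 2 overlapped. In KO hearts it had 15.1, 4.39 and 5.32 CPM under DOX and 2.62, 7.85 and 4.61 CPM under vehicle (log2 0.72, SE 0.58, adjusted p = 0.997), and -0.052 without KO DOX mouse 18. Mmp2, gelatinase A, averaged 56.5 ± 13.1 CPM in WT DOX and 51.4 ± 8.73 CPM in WT vehicle hearts (SD, n = 3 each; log2 0.13, SE 0.24, adjusted p = 0.71).

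Of the 4 inhibitors of metalloproteinases, 1 was higher in KO than in WT hearts under vehicle, beside 1.79% of all genes. This was Timp3, which binds to matrix. It had 445, 491 and 424 CPM in KO vehicle and 288, 191 and 300.1 CPM in WT vehicle hearts, with WT vehicle mouse 2 the lowest (log2 0.81, SE 0.19, adjusted p = 0.0461). The call was lost in 5 of 6 fits that left out 1 library, all but the fit without WT vehicle mouse 1 (adjusted p up to 0.139), and without scaling factors, when only the vehicle groups were fitted, with the title suffix covariate, or when KO DOX mouse 18 and veh_3394 were both left out (adjusted p 0.0542 to 0.107). Timp3 (GRCm38 chr10:86300372-86349506, plus strand) shares 21.28% of its exon length with Syn3 on the other strand. Under DOX Timp3 had 427, 283 and 269 CPM in KO and 339, 372 and 400.5 CPM in WT hearts, which overlapped. Timp4, the inhibitor typical of heart, had 42.5, 51.5 and 44.1 CPM in WT DOX and 82.1, 51.1 and 63.4 CPM in WT vehicle hearts (log2 -0.51, SE 0.32, adjusted p = 0.268). Timp1, induced in many injured tissues, had 2.88, 5.10 and 1.55 CPM in WT DOX and 0.935, 7.46 and 1.59 CPM in WT vehicle hearts (log2 -0.10, SE 0.80, adjusted p = 0.945), and 1.31 without WT vehicle mouse 2. Timp2, which also takes part in Mmp2 activation, averaged 72.3 ± 1.11 CPM in WT DOX and 84.9 ± 14.2 CPM in WT vehicle hearts (SD, n = 3 each).

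Of the 4 crosslinking and folding genes, 1 rose and 1 fell with DOX in WT hearts, beside 9.39% and 9.20% of all genes. Lox, lysyl oxidase, which crosslinks collagen and elastin (GRCm38 chr18:52516067-52529867, minus strand), had 7.22, 17.7 and 14.02 CPM in WT DOX and 4.94, 5.87 and 4.56 CPM in WT vehicle hearts. Every WT DOX library was higher, and Lox rose (log2 1.34, SE 0.32, adjusted p = 0.0203). Serpinh1, the chaperone HSP47 that folds procollagen (GRCm38 chr7:99345376-99353239, minus strand), had 181, 94.9 and 64.2 CPM in WT DOX and 177, 307 and 210.4 CPM in WT vehicle hearts. It fell (log2 -1.03, SE 0.33, adjusted p = 0.0473; 0.053 without scaling factors), although mouse 21 lay within the vehicle range. Neither gene passed when any 1 of WT vehicle mice 2 and 3 and WT DOX mice 22 and 24 was left out (adjusted p as high as 0.0845 for Lox and 0.182 for Serpinh1). In KO hearts Lox had 8.07, 5.16 and 3.66 CPM under DOX and 3.80, 4.72 and 3.54 CPM under vehicle (log2 0.48, SE 0.33, adjusted p = 0.997), and Serpinh1 had 173, 99.1 and 154 CPM under DOX and 199, 228 and 198 CPM under vehicle (log2 -0.55, SE 0.33, adjusted p = 0.997). Lox overlapped between the KO groups and Serpinh1 did not. Between KO DOX and WT DOX hearts Lox gave -1.21 (SE 0.31, adjusted p = 0.109). Loxl1 and Loxl2, relatives of Lox, averaged 24.3 ± 3.96 and 7.48 ± 3.11 CPM in WT DOX hearts, against 37.9 ± 7.43 and 12.4 ± 1.58 CPM in WT vehicle hearts (SD, n = 3 each), so 2 of the 3 lysyl oxidases listed had lower means where Lox rose.

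Among the 3 TGF-beta ligand genes, 1 fell with DOX in WT hearts, beside 9.20% of all genes. This was Tgfb1, the main profibrotic ligand (GRCm38 chr7:25687002-25705077, plus strand). It had 16.2, 13.7 and 14.2 CPM in WT DOX and 21.2, 23.5 and 20.9 CPM in WT vehicle hearts, with no overlap (log2 -0.57, SE 0.11, adjusted p = 0.0117). The call needed both WT DOX mouse 22 and mouse 24 (adjusted p as high as 0.0559 without either). KO hearts had 15.2, 13.6 and 15.2 CPM under DOX and 20.7, 21.1 and 18.1 CPM under vehicle, again with no overlap (log2 -0.44, SE 0.11, adjusted p = 0.333). The interaction for Tgfb1 was 0.13 (SE 0.15, adjusted p = 0.672). All 6 DOX libraries thus lay at 13.6 to 16.2 CPM and all 6 vehicle libraries at 18.1 to 23.5 CPM. Tgfb2 averaged 9.54 ± 1.85 CPM in WT DOX and 7.21 ± 1.35 CPM in WT vehicle hearts (SD, n = 3 each; log2 0.40, SE 0.29, adjusted p = 0.329). Tgfb3 had 11.1, 9.83 and 11.75 CPM in WT DOX and 13.98, 17.0 and 14.01 CPM in WT vehicle hearts, lower in every library without passing (log2 -0.46, SE 0.18, adjusted p = 0.0827).

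Of the 7 fibroblast markers and regulators, 1 fell with DOX in WT hearts, beside 9.20% of all genes. This was Meox1, a homeobox transcription factor of activated fibroblasts (GRCm38 chr11:101877510-101894374, minus strand). It had 6.33, 2.58 and 2.39 CPM in WT DOX and 12.1, 17.6 and 12.2 CPM in WT vehicle hearts, with no overlap (log2 -1.90, SE 0.38, adjusted p = 0.0146). Again the call needed both mouse 22 and mouse 24 (adjusted p as high as 0.0636 without either). Meox1 had 11.5, 5.16 and 7.71 CPM in KO DOX and 9.47, 12.6 and 7.51 CPM in KO vehicle hearts, which overlapped. Pdgfra, a growth factor receptor on nearly all cardiac fibroblasts, had 40.5, 46.6 and 41.8 CPM in WT DOX and 36.5, 32.3 and 34.1 CPM in WT vehicle hearts (log2 0.33, SE 0.18, adjusted p = 0.204). It was higher in every WT DOX library, and in KO hearts it averaged 42.8 ± 12.1 CPM under DOX and 40.2 ± 7.96 CPM under vehicle (SD, n = 3 each). Tcf21, a transcription factor of resident fibroblasts, had 7.64, 5.93 and 5.82 CPM in KO DOX and 3.92, 5.47 and 4.69 CPM in KO vehicle hearts, and 5.79, 3.57 and 3.92 CPM in WT DOX and 6.77, 6.91 and 5.63 CPM in WT vehicle hearts. Its log2 value was 0.46 (SE 0.20, adjusted p = 0.88) for DOX in KO and -0.54 (SE 0.20, adjusted p = 0.0764) for DOX in WT hearts, and the interaction did not pass (1.00, SE 0.29, adjusted p = 0.165). Ddr2, a collagen receptor, averaged 27.2 ± 5.05 CPM in WT DOX and 30.4 ± 1.17 CPM in WT vehicle hearts. Dpep1, a membrane dipeptidase, averaged 112 ± 26.0 CPM in WT DOX and 76.3 ± 14.5 CPM in WT vehicle hearts (SD, n = 3 each).

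**Figure D5:**
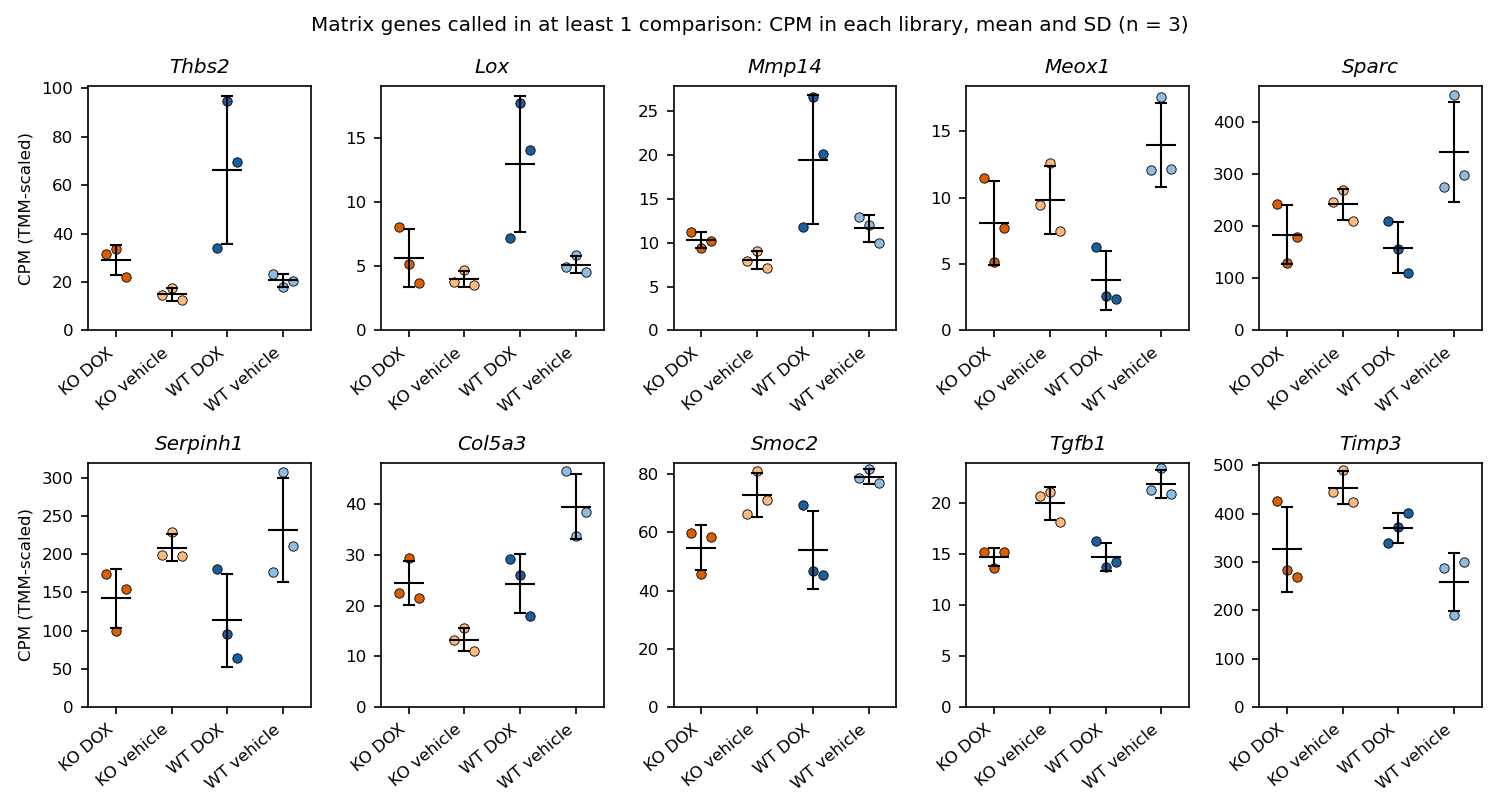
CPM of the 10 genes called in at least 1 comparison, with 1 point per library and the mean and SD of each group of 3; each panel starts at 0 on its own scale. Thbs2 stands at 34.3 to 94.8 CPM in WT DOX and 18.1 to 23.4 CPM in WT vehicle hearts, and Tgfb1 is lower in DOX than in vehicle libraries of both genotypes.

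Genes that act with these 53 were read from lists of the same pathways. Of 22 TGF-beta receptor, signal carrier and early target genes, 1 rose and 3 fell with DOX in WT hearts, beside 9.39% and 9.20% of all genes, a share near that of all genes. Tgfbr2, the type II receptor that binds the ligand, averaged 64.0 ± 10.6 CPM in WT DOX and 46.4 ± 0.781 CPM in WT vehicle hearts (log2 0.46, adjusted p = 0.0447). Eng, endoglin, a co-receptor, averaged 147 ± 14.1 CPM in WT DOX and 231 ± 3.23 CPM in WT vehicle hearts (log2 -0.65, adjusted p = 0.0156). Acvrl1, the ALK1 receptor of endothelium, averaged 30.0 ± 4.56 CPM in WT DOX and 42.8 ± 3.66 CPM in WT vehicle hearts (log2 -0.51, adjusted p = 0.0247). Ltbp4, which tethers latent TGF-beta to microfibrils, averaged 151 ± 48.9 CPM in WT DOX and 289 ± 13.7 CPM in WT vehicle hearts (SD, n = 3 each; log2 -0.94, adjusted p = 0.0165). The WT DOX and WT vehicle libraries did not overlap for any of these 4 genes. Between KO and WT under vehicle, Smad7, an inhibitory SMAD (log2 -0.55, adjusted p = 0.0302), and Eng (log2 -0.58, adjusted p = 0.0438) were lower. No other gene of the 22 passed there, where 2.88% of all genes did.

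Of 23 collagen synthesis and processing genes tested (of 24 listed), 1 rose and 1 fell with DOX in WT hearts, beside 18.6% of all genes. Mia3, a cargo receptor that loads procollagen for export, had 73.4, 85.9 and 88.7 CPM in WT DOX and 66.4, 48.3 and 56.4 CPM in WT vehicle hearts (log2 0.54, adjusted p = 0.0188). Plod1, a lysyl hydroxylase, had 87.9, 76.8 and 66.2 CPM in WT DOX and 98.7, 101 and 96.6 CPM in WT vehicle hearts (log2 -0.36, adjusted p = 0.0401). The groups did not overlap for either. Of 16 other proteases of matrix, 2 rose and 2 fell, beside 9.39% and 9.20% of all genes. Adamts1, a protease of versican, had 71.5, 132 and 80.9 CPM in WT DOX and 37.8, 39.9 and 61.8 CPM in WT vehicle hearts (log2 1.03, adjusted p = 0.0186), and was lower in KO DOX than in WT DOX hearts (log2 -1.26, adjusted p = 0.0452) at 41.9, 32.9 and 44.5 CPM. Mmp8, the collagenase of neutrophil granules and also on the neutrophil marker list, had 0.431, 2.66 and 3.40 CPM in WT DOX and 0.223, 0.138 and 0 CPM in WT vehicle hearts (log2 4.15, adjusted p = 0.0152, a size that depends on the prior count since 1 library is at 0). It passed the filter on low counts only with the WT DOX libraries. Mmp13, a collagenase, averaged 0.219 ± 0.0916 CPM in WT DOX and 0.626 ± 0.131 CPM in WT vehicle hearts (log2 -1.53, adjusted p = 0.0442). This call rests on few reads, 8, 7 and 4 in WT DOX and 16, 20 and 12 in WT vehicle hearts, near the filter on low counts. Mmp15, a membrane-type metalloproteinase, averaged 62.0 ± 15.0 CPM in WT DOX and 85.9 ± 1.596 CPM in WT vehicle hearts (SD, n = 3 each; log2 -0.47, adjusted p = 0.0417).

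Of 12 genes listed for myofibroblasts, 1 fell and none rose with DOX in WT hearts, beside 9.20% and 9.39% of all genes. This count is no result about the list. The gene was Ddah1, an enzyme that clears an inhibitor of nitric oxide synthase (0.498-fold, adjusted p = 0.0242). It had 3.45, 1.82 and 1.81 CPM in WT DOX and 4.27, 4.97 and 4.92 CPM in WT vehicle hearts. Of 10 laminin, nidogen and basement membrane proteoglycan genes none passed with DOX in WT hearts by edgeR, where 18.6% of all genes did. At an unadjusted p below 0.05 there was 1, beside 36.1% of all genes. Lama2, the laminin chain of muscle, was higher in KO vehicle hearts, at 101, 115 and 108 CPM, than in WT vehicle hearts, at 84.7, 70.6 and 80.7 CPM (log2 0.46, adjusted p = 0.0438). No other gene of the 10 passed in that comparison, where 2.88% of all genes did. None of the genes on these lists passed for DOX in KO hearts by edgeR. The numbers at an unadjusted p below 0.05 there were 1 of the TGF-beta list, 1 of the collagen synthesis list, 2 of the myofibroblast list, 4 of the protease list and 1 of the laminin list, beside 5.35% of all genes.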

How the data were processed

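The values are read counts per gene in 12 heart libraries, as the authors deposited them, 1 table per mouse. Per the submitters' processing notes, the tools were fastp 0.20.0, STAR 2.7.0f and featureCounts of Subread 1.6.4. The genome build, annotation and strand setting of the counting were not given in the sources used here. Per the labels' protocols the library kit marks strand. No row lacked a gene name. Depth was 23846398 to 32921876 counts per library.

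The tables were joined by symbol and tested in R 4.3.3 with edgeR 4.0.16. Genes were kept by filterByExpr (minimum count 10), libraries were scaled by TMM, and glmQLFit was run on all 12 libraries together with 4 group means (common biological coefficient of variation 17.5%). P-values were adjusted by the Benjamini-Hochberg method over 14757 genes, and a gene was called below 0.05. CPM use TMM-scaled totals, and log2 CPM a prior count of 2. Alternatives were DESeq2 1.42.0, limma-voom (limma 3.58.1), DESeq2 size factors, no scaling, other filters, fits of 2 groups, a covariate for the suffix that some sample titles carry, and leaving out libraries. Exon lengths and gene coordinates come from GENCODE release M21 (GRCm38), which held 98.3% of the symbols. Figures were drawn with matplotlib 3.10.9 and pandas 2.3.3.

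The 53 genes, their classes and the pathway and marker lists were chosen with earlier results of these data known. Described singly are all genes called, the 4 highest and 4 lowest fold changes of each comparison between groups, 16 genes named whatever their values, and up to 4 called genes of each pathway list. For some of these genes a comparison is given only by the levels, without its fold change. Other genes are given by their levels. The labels make each library a separate mouse, and no 2 libraries of a group agreed within sampling noise. The precision is set by 3 mice per group. Exons of 18 of the 53 genes overlap another gene, whose reads may not be told apart without the strand setting.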

Additional observations from a re-analysis of the deposited data

Results flagged for a closer look

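Col5a3 was marked because its DOX effect differed between genotypes by the interaction test: KO DOX hearts were above KO vehicle hearts and WT DOX hearts below WT vehicle hearts, a difference of 1.57 on the log2 scale (edgeR adjusted p = 0.0481). Tcf21 was marked because the KO libraries were all higher than the WT libraries under DOX and all lower under vehicle, a difference of 1.00 (edgeR adjusted p = 0.165), which did not pass the interaction test. No explanation was tested for either.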

How the results depend on the processing

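No paired analysis was possible because the groups share no replicate numbers. Of the 53 genes, those called for DOX in WT numbered 9, against 34 with no filter, 14 with DESeq2, 21 with limma-voom, 0 in a fit of the 2 groups, 5 with a title suffix covariate, 1 to 17 leaving out 1 library; DESeq2, limma-voom and no filter each kept all 9 calls. Without scaling factors 8 were called, without Serpinh1 (adjusted p = 0.053), and without both KO DOX mouse 18 and KO vehicle mouse veh_3394, Mmp14 (0.0596) and Serpinh1 (0.0599) were lost and 7 of the 9 calls were kept. For DOX in KO, 0 became 10 with no filter, 2 with DESeq2 and 2 with limma-voom, and stayed 0 to 0 leaving out 1 library. For KO under vehicle, 2 became 17 with no filter, 4 with DESeq2 and 8 with limma-voom, but 1 with no scaling factors, with a fit of the 2 groups, with the title suffix or when KO DOX mouse 18 and KO vehicle mouse veh_3394 were both left out, and 1 to 3 leaving out 1 library. For KO under DOX, 0 became 25 with no filter, 3 with DESeq2 and 5 with limma-voom, and 0 to 7 leaving out 1 library. For the interaction, 1 became 24 with no filter, 3 with DESeq2 and 5 with limma-voom, 0 with the title suffix or without that pair of libraries, and 0 to 3 leaving out 1 library. The cause was not tested. The shares of all genes called under the alternative fits are not given, here or above. The counts of the 53 genes under those fits are therefore no result about these genes. DESeq2 size factors in edgeR and a filter of 1 CPM in 3 libraries kept every count. Among the values followed through these fits, signs turned for Timp1 with DOX in WT (0.89 by limma-voom, 0.046 with the title suffix, and -0.61 to 1.31 leaving out 1 library), for Mmp2 with DOX in WT (-0.020 to 0.31 leaving out 1 library), and for Col18a1 (-0.15 without the pair, -0.30 to 0.98 leaving out 1 library) and Mmp3 (-0.052 to 1.20 leaving out 1 library) with DOX in KO. The list may not be complete for the KO comparisons. Col1a1, Col1a2, Col3a1, Fn1 and Dcn had positive log2 values for DOX in KO hearts. Without KO DOX mouse 18, their mean CPM in KO DOX lay below that in KO vehicle hearts. Those vehicle means still held veh_3394, the highest of its group for each of these genes. With both left out, the remaining KO DOX and KO vehicle libraries overlapped for each. Dcn then had 441 and 414 CPM in KO DOX and 385 and 422 CPM in KO vehicle hearts. Without the pair, the median of the 53 genes for KO under DOX was -0.03. With 3 mice per group, a gene that missed the threshold is not shown to be unchanged. The main edgeR p-values set a group difference against the spread between mice, estimated over all 4 groups and drawn towards that of other genes.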
